A study of Homo sapiens with 28 samples.

Results

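Interleukin-1 (IL-1) family genes were followed in EPC2, a line of human esophageal epithelial cells that has been immortalised. The set holds 10 of the 23533 gene rows in the RNA tables, taken by symbol: the ligands IL1A, IL1B, IL18 and IL33, the receptor antagonists IL1RN and IL36RN, and the receptor genes IL1R1, IL1R2, IL1RL1 and IL1RAP. Every peak that the authors' lists assign to these genes was taken with them. The 4 groups were untreated EPC2 cells, cells given IL-13 at 100 ng/ml, cells given vitamin D at 100 nM, and cells given both, each for 6 h. RNA sequencing covered 12 samples, 3 a group, but the tables hold 1 RPKM value (a read count scaled to transcript length and to library size) per group. ChIP-seq covered 16 libraries, 1 per condition: the histone marks H3K4me3, H3K9ac and H3K27ac in all 4 groups, the vitamin D receptor VDR without and with vitamin D, and STAT6, the transcription factor that IL-13 activates, without and with IL-13. EPC2 is a single cell line grown without the immune and stromal cells of the esophagus, and the labels do not name the form of vitamin D.

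IL-1 cytokines are alarm signals of epithelial and myeloid cells. IL-1α and IL-1β bind the receptor chain made from IL1R1, which then recruits the accessory chain made from IL1RAP; the antagonist made from IL1RN occupies the receptor without signalling, and the decoy receptor made from IL1R2 captures the ligand. IL-33 is a nuclear alarmin released from barrier epithelium, and its receptor, called ST2 and made from IL1RL1, pairs with the same accessory chain and is best known on mast cells and type 2 innate lymphoid cells. IL1RL1 gives a long membrane-bound form and a short soluble form that captures IL-33 as a decoy.

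The cells carried most of the listed markers of squamous epithelium. The 9 listed markers, led by the keratin gene KRT6A, summed to 31624 to 36296 RPKM in the 4 groups. Of these 9, EPCAM was low, at 0.456 to 0.745 RPKM. The 10 listed markers of mast cells, eosinophils and type 2 innate lymphoid cells, which carry ST2 in tissue, summed to 0.105 to 0.179 RPKM, and CPA3, TPSAB1, TPSB2, HPGDS, FCER1A and SIGLEC8 were at 0 in every group. The 7 leukocyte markers summed to 48.5 to 61.1 RPKM, of which CD68 alone was 48.1 to 60.5. Fibroblast markers summed to 6.03 to 15.4 RPKM, lowest with both agents, of which COL1A1 alone was 5.84 to 15.2. Endothelial markers summed to 0.573 to 3.19 RPKM, highest with both agents, of which VWF alone was 0.514 to 3.15. These sums thus follow 1 gene each. Among the ChIP libraries the H3K27ac library of untreated cells had the highest background of its mark, a relative measure of depth, at 1.40 fragments against 0.512 under IL-13, 0.731 under vitamin D and 0.565 under both. That gap bears on every H3K27ac value below.

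The genes spanned almost 3 orders of magnitude in untreated cells. IL1RN was the highest at 141 RPKM, above 98.6% of all gene rows, and IL1B at 89.8 and IL1A at 58.3 RPKM followed. IL18 stood at 11.6, IL1RAP at 8.73 and IL36RN at 8.52 RPKM. The other 4 genes were low, with IL1R1 at 2.47, IL33 at 1.51, IL1R2 at 0.693 and IL1RL1 at 0.192 RPKM. With vitamin D, IL1RL1 stood at 5.51 RPKM, above IL1R1, IL33 and IL1R2 and close to IL36RN at 5.59, and with both agents IL1B at 160 and IL1RN at 161 RPKM were nearly level. Summed over the 10 genes, the RPKM was 323 untreated, 256 under IL-13, 472 under vitamin D and 423 under both. The tables give no spread between samples, so neighbours in this order cannot be told apart by replicate error.

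**Figure D1:**
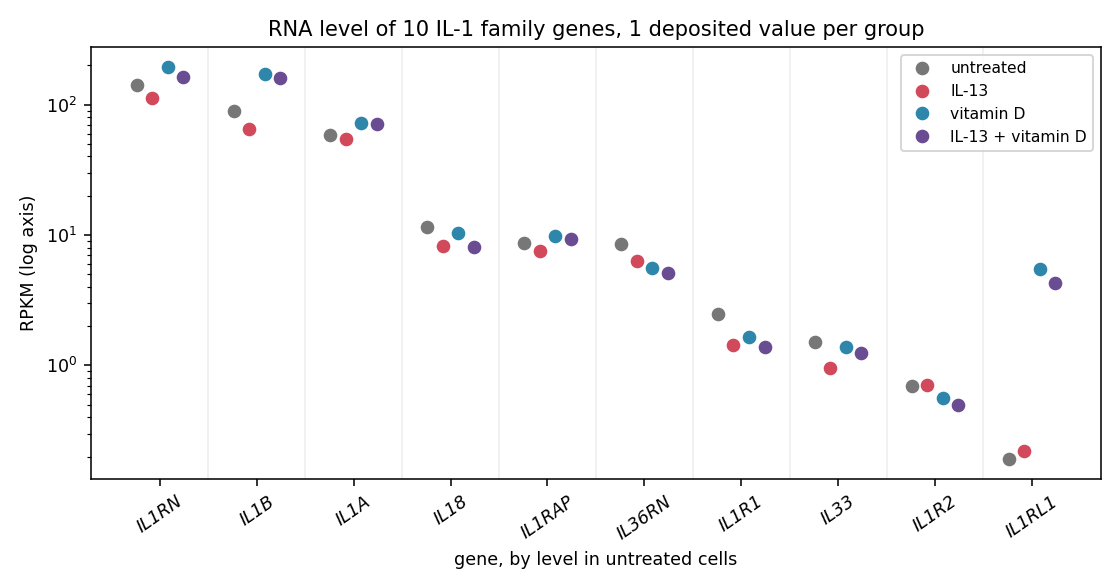
RPKM (log axis) of the 10 genes, ordered by level in untreated cells, with 1 point per group as deposited and no error bar because the tables hold 1 value per group. IL1RL1 moves from 0.192 and 0.221 RPKM without vitamin D to 5.51 and 4.27 with it, while each of the other 9 genes varies by less than 3-fold across the groups.

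IL1RL1, the IL-33 receptor gene, showed the largest change of the set. Its row in the tables spans chr2:102953717-102968497 (hg19, plus strand). In the authors' deposited tables it stood at 0.192 RPKM untreated, 0.221 under IL-13, 5.51 under vitamin D and 4.27 under both. The 2 groups given vitamin D were high and the 2 groups without it were low. The authors' deposited table for vitamin D against untreated gave a log2 fold change of 4.36 (adjusted p = 1.88e-226), with a standard error of 0.135 derived here from that fold change and its p-value. The authors' deposited table for both agents against untreated gave 4.10 (adjusted p = 1.4e-148; derived SE 0.157). IL-13 alone gave 0.10 in the authors' deposited table (adjusted p = 0.795). Against vitamin D alone, the authors' deposited table gave a log2 fold change of -0.39 for both agents (adjusted p = 4.81e-05; derived SE 0.086), so the level with both agents was lower than with vitamin D alone. The IL-13 effect with vitamin D differed from that without it by -0.49, which did not pass the z test derived from the authors' deposited tables (Benjamini-Hochberg adjusted p = 0.328). The ratio of IL1RL1 to IL1R1, per length, was 0.0776 untreated, 0.154 under IL-13, 3.35 under vitamin D and 3.10 under both. The untreated level is low, so the size of the fold depends on how it is taken. The plain RPKM ratio of vitamin D to untreated was 28.8-fold, more than the deposited fold change. With 1 RPKM added to each value, vitamin D gave 2.45 on the log2 scale, less than the deposited one.

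The IL1RL1 row covers transcripts from 2 starts 25755 bp apart. The transcript from the upstream start, chr2:102927962 in hg19, is the longer one, and the RPKM row does not separate it from the transcript of the downstream start at chr2:102953717, so the long and soluble forms cannot be told apart in the RNA values. The 250 bases before each start are shown to set the 2 starts of the responding gene side by side, and the same stretch of IL1B is shown because a VDR region spanned its start. By distance, the VDR regions of IL1RL1 lay almost wholly outside the 2 windows shown: one ran from 1381 to 2062 bp after the upstream start, and the other from -990 to -240 bp of the downstream start. They are RefSeq sequences of build GRCh38.p14, 5′ to 3′ on the gene's strand, at chr2:102311313-102311562 (plus), chr2:102337007-102337256 (plus) and chr2:112836780-112837029 (minus). Capitals mark a hexamer that forms one arm of a vitamin D response element (the hexamer AGGTCA, its variant AGTTCA, its variant GGGTCA or its variant GGTTCA, on either strand).
IL1RL1 upstream start: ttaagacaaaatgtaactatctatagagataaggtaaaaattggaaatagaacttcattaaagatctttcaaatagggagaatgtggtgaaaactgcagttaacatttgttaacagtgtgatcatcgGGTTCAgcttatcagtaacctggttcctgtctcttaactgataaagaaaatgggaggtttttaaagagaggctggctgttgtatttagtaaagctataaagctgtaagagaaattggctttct
IL1RL1 downstream start: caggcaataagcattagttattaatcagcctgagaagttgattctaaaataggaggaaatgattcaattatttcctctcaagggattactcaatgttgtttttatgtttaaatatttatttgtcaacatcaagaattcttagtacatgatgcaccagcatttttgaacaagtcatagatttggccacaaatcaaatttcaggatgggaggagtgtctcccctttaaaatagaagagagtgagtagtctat
IL1B start: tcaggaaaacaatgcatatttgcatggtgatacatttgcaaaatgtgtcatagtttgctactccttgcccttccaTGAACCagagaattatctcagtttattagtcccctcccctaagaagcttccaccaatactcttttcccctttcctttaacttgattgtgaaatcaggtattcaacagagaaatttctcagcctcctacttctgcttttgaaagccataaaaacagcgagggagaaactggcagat
The upstream IL1RL1 window holds GGTTCA from position -123, the downstream window holds none of the 4 hexamers, and the IL1B window holds GGTTCA on the opposite strand at position -175. These positions count from the GRCh38.p14 RefSeq starts, and the VDR distances from the hg19 starts of the peak lists. The starts of the 2 annotations need not be the same base. Such a hexamer is common, present in 33.8% of the 35116 windows of the same length in the table. The full element, a direct repeat of the 4 hexamers with 3 bases between, was found in 0.0655% of windows and in 0 of the 19 windows of the 9 genes that matched. The STAT6 element, TTC and GAA with 4 bases between, was found in 5.38% of windows and in 2 of the 19, at IL1R2 and IL1RN. A match is a description of the letters only.

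VDR was found at IL1RL1 without and with added vitamin D. With vitamin D, the stronger region, chr2:102929343-102930024 (hg19), lay in an intron with its summit 1667 bp after the upstream start. Its fold enrichment was 24.5 in the authors' list (-log10 q 55.7), rank 623 of 9224 VDR regions. In untreated cells a region of fold enrichment 6.89 (-log10 q 7.42) was listed inside the same interval. The second region, chr2:102952727-102953477, was a promoter region whose edges lay at -990 and -240 bp from the downstream start. It had a fold enrichment of 9.73 with vitamin D (-log10 q 15.3, rank 2625) and 5.80 in untreated cells (-log10 q 4.54). Both intervals were thus occupied in each library, with the higher enrichment in the library given vitamin D. With 1 VDR library per condition this difference has no replicate check. Of all VDR regions with vitamin D, 17.0% overlapped a region of untreated cells; of the 9 assigned to the 10 genes, 3 did, the 2 at IL1RL1 and 1 at IL1R2. No STAT6 region was assigned to IL1RL1 with or without IL-13, and none overlapped a VDR region of the 10 genes.

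H3K27ac, an acetylation of active promoters and enhancers, lay over the downstream IL1RL1 start and just after the upstream one in untreated cells, with vitamin D and with both agents, but no region was called there with IL-13 alone. That pattern was shared by 3.81% of the 100632 H3K27ac regions of the series. At the downstream start the region covered 2058 bp, with fold enrichments of 7.93 untreated, 11.0 with vitamin D and 9.58 with both agents. After centring on regions shared by each pair of libraries, these were 1.67-fold and 1.64-fold the untreated value, where 6.16% and 9.12% of all shared H3K27ac regions were higher by 1.5-fold or more. Without centring the values were 1.38-fold and 1.21-fold. At the upstream start the 1548 bp region had fold enrichments of 6.68 untreated, 6.93 with vitamin D and 7.67 with both, or 1.25-fold and 1.56-fold after centring. Both VDR regions lay inside these joined intervals. The IL-13 library had the lowest background of the 4 (0.512), though the library with both agents was close to it (0.565) and had the regions; the part of depth in the missing calls was not tested.

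H3K9ac regions at IL1RL1 were few and weak: 0 in untreated cells, 0 under IL-13, 2 under vitamin D and 3 under both agents. Their pileups were 4 to 6 fragments, at or just above the smallest that these libraries list, which is 4, and no 2 of them overlapped between the libraries. H3K4me3, the mark of active promoters, was called at neither start in any of the 4 libraries. The only H3K4me3 region assigned to IL1RL1 was a weak one in untreated cells, at -60146 bp from the upstream start, with a fold enrichment of 3.43.

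**Figure D2:**
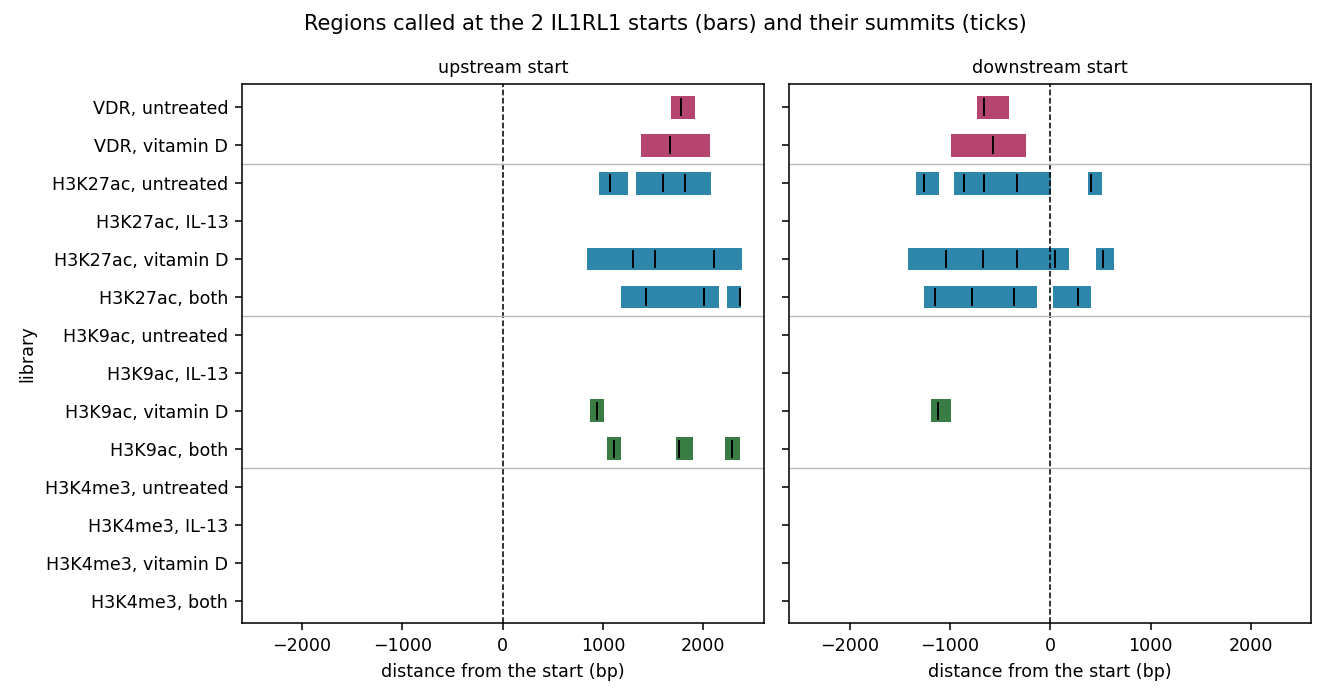
Regions called by the authors around each IL1RL1 start (horizontal axis: distance from the start in bp; rows: libraries; bars: regions; ticks: summits; dashed line: the start). VDR regions appear in both VDR libraries at each start, H3K27ac regions in every H3K27ac library except IL-13 alone, H3K9ac regions with vitamin D at each start and with both agents after the upstream start, and no H3K4me3 region in any library.

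IL1B and IL1A, the genes of the main agonist ligands, were higher with vitamin D and lower with IL-13. IL1B (chr2:113587337-113594356, hg19, minus strand) stood at 89.8 RPKM untreated, 64.9 under IL-13, 171 under vitamin D and 160 under both in the authors' deposited tables. The level with vitamin D was 1.90-fold the untreated level, and the level with both agents was 2.47-fold the level with IL-13. In the authors' deposited tables IL1B fell by 0.48 on the log2 scale with IL-13 (adjusted p = 2.52e-34) and rose by 0.98 with vitamin D (adjusted p = 7.84e-203). Both agents together gave a log2 fold change of 0.83 against untreated in the authors' deposited table (adjusted p = 9.14e-87) and -0.13 against vitamin D alone (adjusted p = 0.00548). IL1A (chr2:113531492-113542971, minus strand) moved less, from 58.3 RPKM untreated to 54.0 under IL-13, 71.7 under vitamin D and 71.2 under both in the authors' deposited tables. Its log2 fold changes in the authors' deposited tables were -0.13 with IL-13 (adjusted p = 0.0133), 0.35 with vitamin D (adjusted p = 9.73e-15) and 0.29 with both (adjusted p = 1.21e-06). The ratio of IL1B to IL1A was 1.54 untreated, 1.20 under IL-13, 2.38 under vitamin D and 2.25 under both.

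VDR was listed at IL1B only with vitamin D. A promoter region, chr2:113594260-113594642 (hg19), spanned the start from -286 to 96 bp with a fold enrichment of 5.70, rank 6257 of 9224. A second one, chr2:113571898-113572140, lay at 22335 bp, beyond the end of the gene, with a fold enrichment of 4.16. Both were weaker than the regions at IL1RL1. At the IL1B promoter the H3K4me3 fold enrichment was 21.2 untreated, 20.3 under IL-13, 34.4 under vitamin D and 27.2 under both, or 1.44-fold and 1.21-fold the untreated value after centring in the libraries with vitamin D, which did not reach 1.5-fold. H3K27ac there was 16.3 untreated, 10.6 under IL-13, 17.3 under vitamin D and 10.2 under both. These H3K27ac values were not centred. Over all shared H3K27ac regions, the median log2 ratio to untreated was -0.47 under IL-13, -0.27 under vitamin D and -0.44 under both. IL1A had no VDR region. It held the only STAT6 region assigned to the 10 genes, at -8496 bp, listed with IL-13 (fold enrichment 4.45) and not in untreated cells. Between IL1B and IL37, at -39769 bp from the IL1B start, a VDR region (fold enrichment 12.5 with vitamin D) and a STAT6 region (7.17 with IL-13) overlapped; the authors' lists assign both to IL37.

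The antagonist genes both fell with IL-13 and moved in opposite directions with vitamin D. IL1RN (chr2:113885138-113891593, plus strand) followed the ligands, with 141 RPKM untreated, 112 under IL-13, 194 under vitamin D and 161 under both in the authors' deposited tables. Its log2 fold changes in the authors' deposited tables were -0.35 with IL-13 (adjusted p = 1.68e-18), 0.52 with vitamin D (adjusted p = 1.45e-77) and 0.20 with both (adjusted p = 1.06e-05). Adding IL-13 to vitamin D lowered it by a log2 fold change of -0.30 in the authors' deposited table (adjusted p = 3.73e-12). The level of IL1RN over the sum of IL1A and IL1B was 0.952 untreated, 0.942 under IL-13, 0.801 under vitamin D and 0.698 under both; this ratio has no error because each level is 1 value. IL36RN (chr2:113816685-113822320, plus strand), which blocks the IL-36 receptor, was instead lower in every treated group: 8.52 RPKM untreated, 6.35 under IL-13, 5.59 under vitamin D and 5.15 under both in the authors' deposited tables. It fell by 0.43 with IL-13 (adjusted p = 6.33e-10), by 0.54 with vitamin D (adjusted p = 1.39e-14) and by 0.71 with both (adjusted p = 1.73e-23) on the log2 scale of the authors' deposited tables. IL1RN had 1 VDR region (fold enrichment 5.29), in an exon at 3545 bp from the start of another IL1RN transcript, chr2:113875470. Its summit lay at -6123 bp from the IL1RN start given above. IL36RN had no VDR region. The only histone region assigned to IL36RN was a weak H3K27ac region in untreated cells (fold enrichment 2.92).

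IL18 and IL33, the genes of ligands stored in resting epithelium, were lower with IL-13. IL18 (chr11:112013974-112034840, minus strand), whose product needs caspase cleavage to become active, stood at 11.6 RPKM untreated, 8.21 under IL-13, 10.4 under vitamin D and 8.15 under both in the authors' deposited tables. The 2 groups given IL-13 were the low ones. In the authors' deposited tables IL18 fell by 0.48 with IL-13 (adjusted p = 5.46e-06) and by 0.49 with both (adjusted p = 1.17e-06) on the log2 scale, and gave -0.10 with vitamin D (adjusted p = 0.343). Adding IL-13 to vitamin D gave -0.37 in the authors' deposited table (adjusted p = 0.000206). IL33 (chr9:6215786-6257983, plus strand) was low throughout, at 1.51 RPKM untreated, 0.949 under IL-13, 1.39 under vitamin D and 1.25 under both in the authors' deposited tables. It fell by 0.59 on the log2 scale with IL-13 in the authors' deposited table (adjusted p = 0.000114), and its values with vitamin D, -0.07, and with both, -0.26, did not pass the test there (adjusted p = 0.743 and 0.169). IL33 thus showed no called change with vitamin D, the condition in which its receptor gene was highest. Its IL-13 effect with vitamin D, -0.17 in the authors' deposited table, differed from that without it by 0.42, which did not pass the derived z test (Benjamini-Hochberg adjusted p = 0.371). A VDR region of fold enrichment 9.0 lay at -20661 bp from its start, with no histone region over it, and IL33 had no H3K4me3 region at its promoter. The intronic H3K27ac region of IL33 at 14496 bp had fold enrichments of 12.5 untreated, 5.29 under IL-13, 7.51 under vitamin D and 5.11 under both. After centring, the treated values were 0.587-fold, 0.722-fold and 0.556-fold the untreated value. Of all shared H3K27ac regions, 5.56%, 4.12% and 5.86% were lower by 1.5-fold or more in these treatments.

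IL1R1 (chr2:102770402-102796334, plus strand), the signalling receptor chain for IL-1, was lower in every treated group. It stood at 2.47 RPKM untreated, 1.44 under IL-13, 1.65 under vitamin D and 1.38 under both in the authors' deposited tables. On the log2 scale of the authors' deposited tables it fell by 0.76 with IL-13 (adjusted p = 4.53e-16), by 0.51 with vitamin D (adjusted p = 6.96e-09) and by 0.81 with both (adjusted p = 5.19e-18). IL1RL1 and IL1R1, both in the receptor cluster of chromosome 2, therefore moved in opposite directions with vitamin D. IL1R1 had no VDR region. IL1R2 (chr2:102615424-102644884, plus strand), the decoy, was at 0.693, 0.704, 0.560 and 0.496 RPKM in the same order of groups and passed no test in the authors' deposited tables, with adjusted p from 0.198 to 0.965. The VDR region assigned to it, chr2:102516198-102517153, lay at -98918 bp from this start and at -91800 bp from another IL1R2 start, chr2:102608306. Its fold enrichment was 23.7 with vitamin D and 8.84 in untreated cells, close in strength to the intronic region of IL1RL1. IL1RAP (chr3:190231840-190374986, plus strand), the shared accessory chain, stayed within 7.57 to 9.89 RPKM. In the authors' deposited tables it fell by 0.18 with IL-13 on the log2 scale (adjusted p = 0.00506), rose by 0.27 with vitamin D (adjusted p = 1.45e-06) and gave 0.13 with both (adjusted p = 0.09). Its VDR regions lay in introns at 21148 and 71844 bp, with fold enrichments of 5.76 and 10.6. The second overlapped an H3K27ac region with fold enrichments of 25.0 untreated, 7.94 under IL-13, 16.2 under vitamin D and 10.2 under both. With IL-13 this region was 0.44-fold the untreated value after centring, on a pileup of 11 against 59 in the deeper untreated library. Of all shared regions, 5.56% were lower by 1.5-fold or more, and the share at 2-fold was not worked out. Among the 34 shared H3K27ac regions of the set, it was the only 1 lower by 2-fold or more with IL-13.

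**Figure D3:**
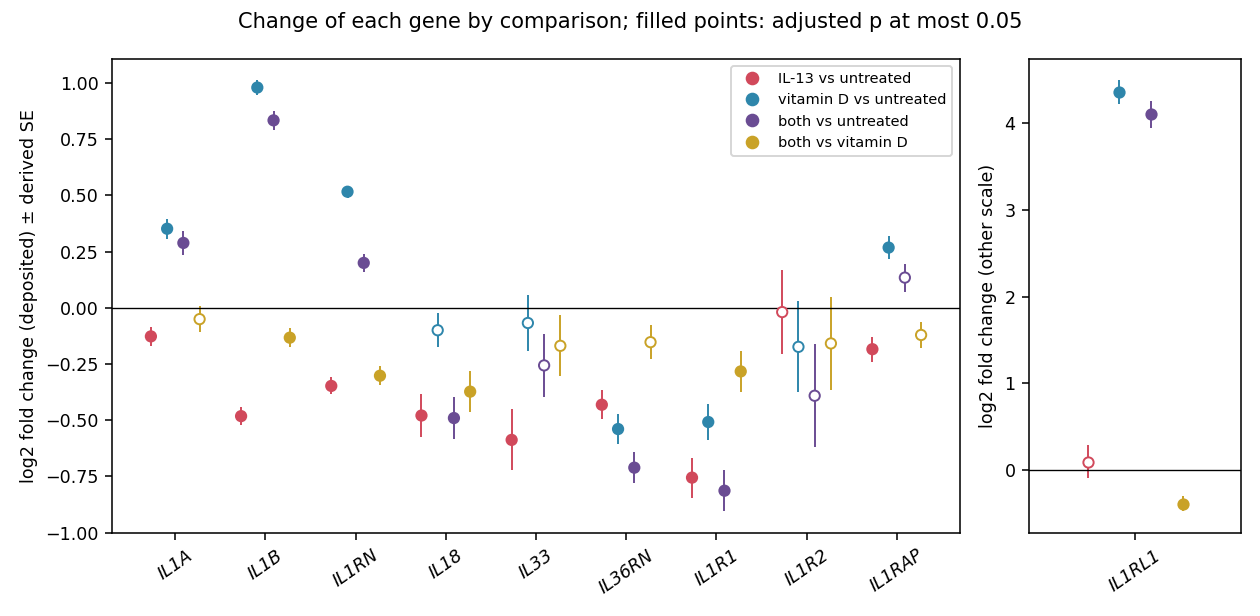
Log2 fold change of each gene in the 4 deposited comparisons (points; filled where the deposited adjusted p is at most 0.05) with the standard error derived from the deposited fold change and p-value (bars); IL1RL1 has an axis of its own. Every filled IL-13 point (red) lies below 0, and filled vitamin D points (blue) lie above 0 for IL1A, IL1B, IL1RN, IL1RL1 and IL1RAP and below 0 for IL36RN and IL1R1.

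Counted over the set, IL-13 lowered 8 of 10 genes and raised 0 in the authors' deposited table, where 14.0% of all tested genes fell and 12.3% rose. The exceptions were IL1R2 and IL1RL1. The median log2 fold change of the 10 was -0.39 in that table, and 0.00 over all tested genes. At a change of 2-fold or more 0 of the 8 remained, so these decreases were modest. Vitamin D raised 5 of 10, IL1A, IL1B, IL1RN, IL1RL1 and IL1RAP, and lowered IL36RN and IL1R1 in the authors' deposited table, where 17.5% of all tested genes rose and 15.1% fell. With both agents against untreated, 7 of 10 were called in the authors' deposited table, where 31.7% of all tested genes were called. Of these, IL1A, IL1B, IL1RN and IL1RL1 were higher and IL18, IL36RN and IL1R1 lower. IL1RL1 alone passed 2-fold in these comparisons. The 3 comparisons share the untreated samples.

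Adding IL-13 to vitamin D lowered 5 of 10 genes, IL1B, IL1RN, IL18, IL1R1 and IL1RL1, and raised 0 in the authors' deposited table, where 16.9% of all tested genes fell and 16.4% rose. Vitamin D added to IL-13 is not among the deposited contrasts and was derived from them: 5 of 10 genes were higher and IL36RN was lower, where 12.3% of all tested genes were higher and 11.9% lower. In that derived comparison IL1RL1 gave 4.0, IL1B 1.32, IL1RN 0.55, IL1A 0.42 and IL1RAP 0.32 on the log2 scale. The IL-13 effect with vitamin D differed from that without it for 2 of 10 genes, IL1B and IL1R1, where 1.41% of all tested genes had a higher and 1.01% a lower difference. For IL1B the log2 effect of IL-13 was -0.48 without and -0.13 with vitamin D, a difference of 0.35 with a derived SE of 0.056 (z test derived from the authors' deposited tables, Benjamini-Hochberg adjusted p = 2.35e-07). For IL1R1 it was -0.76 without and -0.28 with vitamin D, a difference of 0.47 with a derived SE of 0.128 (the same test on the authors' deposited tables, adjusted p = 0.0133). In each case IL-13 lowered the gene by less when vitamin D was present.

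**Figure D4:**
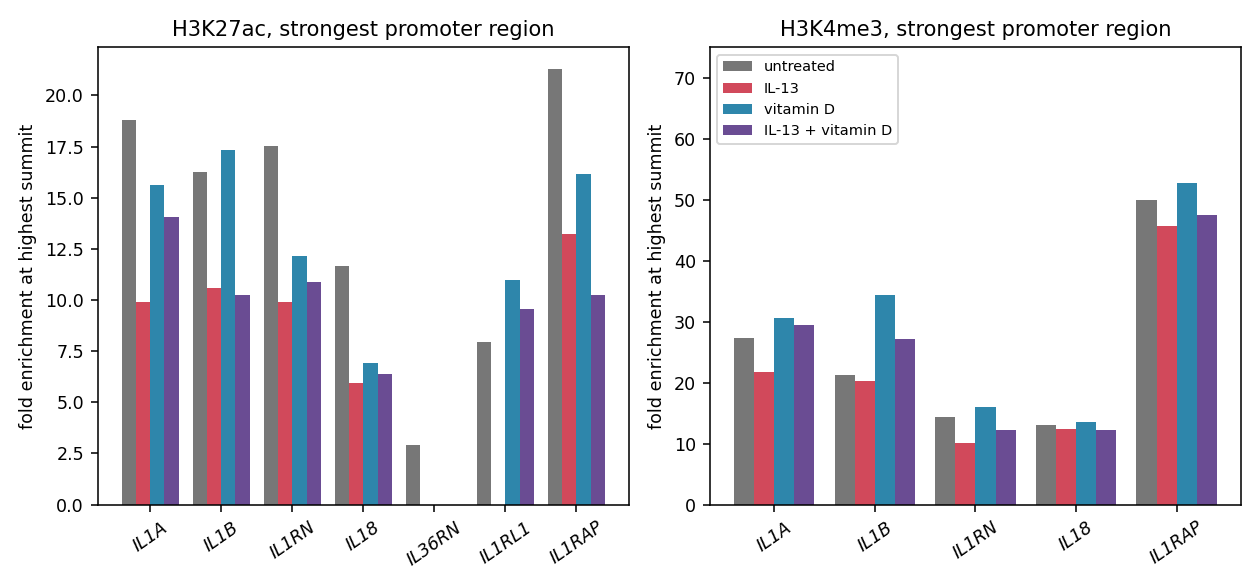
Fold enrichment at the highest summit of the strongest promoter region of each gene that has one, for H3K27ac (left) and H3K4me3 (right). Each bar is 1 library, with no error bar, and a missing bar means that no promoter region was called. Regions classed as upstream, such as the H3K4me3 region of IL1R1, are not counted as promoter regions. IL1RL1 has H3K27ac but no H3K4me3 at its promoter, and the IL1B H3K4me3 bar is 34.4 with vitamin D against 21.2 untreated.

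Across the set, H3K4me3 marked the promoters of IL1A, IL1B, IL1RN, IL18 and IL1RAP in all 4 libraries. IL1RAP had the strongest region, with fold enrichments of 45.7 to 52.8. IL1R1 also had an H3K4me3 region in all 4 libraries, classed as upstream, at -10982 bp from the IL1R1 start given above. Its fold enrichments were 36.3 untreated, 30.5 under IL-13, 32.5 under vitamin D and 29.0 under both. RefSeq lists other IL1R1 starts, and whether this region lies at one of them was not tested. Of the 7 to 9 H3K4me3 regions of the set that were shared with untreated cells, 0 passed 1.5-fold in either direction, where 4.04% of all shared regions did under IL-13, 4.33% under vitamin D and 4.38% under both agents. For H3K27ac, 3 of 34 shared regions were higher and 5 lower with IL-13, where 8.96% of all shared regions were higher and 5.56% lower. With vitamin D, 2 of 45 were higher and 4 lower, where 6.16% of all were higher and 4.12% lower. With both agents 6 of 44 were higher and 5 lower, where 9.12% of all were higher and 5.86% lower. Without centring, these splits were 0 higher and 21 lower, 0 and 12, and 1 and 16. The libraries differ by a median log2 ratio of -0.47, -0.27 and -0.44 from the deeper untreated library. For H3K9ac, 2 of 23 shared regions passed 1.5-fold under IL-13, 2 of 24 under vitamin D and 2 of 22 under both agents, where 11.4%, 11.5% and 12.2% of all shared regions did.

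Other genes of the pathway were taken from fixed lists. Of 8 tested IL-1 family ligands and receptors outside the set, 1 rose and 2 fell with vitamin D in the authors' deposited table, near the 17.5% and 15.1% of all tested genes. The riser was IL18R1, the IL-18 receptor chain that lies next to IL1RL1 on chromosome 2. It stood at 0.267 RPKM untreated, 0.309 under IL-13, 1.16 under vitamin D and 1.02 under both in the authors' deposited tables. Its log2 fold change was 1.83 with vitamin D (adjusted p = 1.17e-28) and 1.71 with both (adjusted p = 4.18e-20) in the authors' deposited tables, so the high and low groups were those of IL1RL1, at a smaller size. No VDR region was assigned to IL18R1; the 2 regions of IL1RL1 lay at -49468 and -25946 bp from its start. The genes that fell were IL36G, an IL-36 agonist, and IL1RL2, the IL-36 receptor chain. IL36G was at 15.3 RPKM untreated, 11.96 under IL-13, 8.61 under vitamin D and 9.05 under both, and IL1RL2 at 1.09, 0.857, 0.648 and 0.470 in the authors' deposited tables. The IL-36 agonists IL36A and IL36B were not called with vitamin D, at log2 fold changes of 0.26 and 0.26 in the authors' deposited table (adjusted p = 0.41 and 0.413).

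Among 17 tested genes of cytokine processing and release, IL-13 raised GSDMD and DFNA5 and lowered CASP4, PYCARD, GSDMA and S100A13 in the authors' deposited table, where 12.3% of all tested genes rose and 14.0% fell. Vitamin D raised 6 of the 17 and lowered CASP1, NLRP10 and GSDMC in the authors' deposited table, where 17.5% of all tested genes rose and 15.1% fell. The inflammasome adaptor PYCARD went from 64.8 RPKM untreated to 57.7 with IL-13 and 90.2 with vitamin D, and CASP1, the protease that matures IL-1β and IL-18, from 26.1 to 28.4 and 21.8, in the authors' deposited tables. The CASP1 change was called with vitamin D (log2 fold change -0.20 in the authors' deposited table, adjusted p = 0.000673) and not with IL-13 (adjusted p = 0.0677). Of 22 tested signalling genes, IL-13 lowered 9 and raised CHUK in the authors' deposited table, against 14.0% and 12.3% of all tested genes. Vitamin D raised IRAK1, IKBKB, IKBKG and NFKBIA and lowered TAB2, PELI1, NFKBIZ and ZC3H12A in the authors' deposited table, shares near the 17.5% and 15.1% of all tested genes. The genes that fell with IL-13 included MYD88, the adaptor of the IL-1 receptors, and ZC3H12A, an RNase that degrades cytokine mRNAs, at 13.8 RPKM untreated, 11.7 under IL-13, 10.1 under vitamin D and 8.32 under both in the authors' deposited tables. NFKBIA, the inhibitor of NF-κB that NF-κB itself induces, was at 87.5, 82.8, 133 and 121 RPKM in the same order of groups in the authors' deposited tables. In the receptor cluster of chromosome 2, IL1RL1, IL18R1, SLC9A2 and MFSD9 rose and IL1R1 and IL1RL2 fell with vitamin D, of 8 tested genes in the authors' deposited table. Of these, SLC9A2 was low, at 0.165 RPKM untreated and 0.261 with vitamin D. The MFSD9 change was small, at a log2 fold change of 0.18 in the authors' deposited table (adjusted p = 0.049). In the ligand cluster IL1A, IL1B, IL1RN and PSD4 rose and IL36G and IL36RN fell, of 10 tested. Over all tested genes in the authors' deposited table, 17.5% rose and 15.1% fell, and the genes of the set make up part of each cluster.

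By the size of its log2 fold changes in the 3 comparisons with untreated cells, IL1RL1 had no close match. The distance used counts size as well as direction, so a gene with the same high and low groups but smaller changes lies far from it. Among 11509 genes, the nearest by Euclidean distance over the 3 log2 fold changes were FOS at 2.01, SLC6A12 at 2.11, KLK6 at 2.27, SEMA6D at 2.32 and COL13A1 at 2.40. FOS, an immediate early transcription factor, had log2 fold changes of -0.39 under IL-13, 3.39 under vitamin D and 2.41 under both in the authors' deposited tables. The nearest to IL1B were RGNEF at 0.16, WEE1 at 0.20, ACER2 at 0.24, RASSF5 at 0.25 and DUSP5 at 0.25.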

How the data were processed

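RNA was measured in 12 samples and chromatin in 16 libraries of EPC2 cells, grouped by the treatment in the labels. The submitters' processing notes name Trim Galore, STAR, SAMtools, Bowtie, MACS2, GRCh37 and hg19; which step each served, its version and its settings are unknown here. RPKM values, 1 per group, were deposited by the authors in 4 tables, per the file headers. The log2 fold changes and the p-values beside them were deposited by the authors; which test gave them is unknown here, and an adjusted p of 1 was read as not tested. The labels do not say whether the 3 samples of a group were separate cultures. RPKM holds no read depth, so depth and the precision it gives are unknown. The table named for IL-13 against both agents holds vitamin D against both: its fold changes follow the RPKM ratio to vitamin D (r = 0.995 across 10902 genes) and not that to IL-13 (r = -0.01).

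Peak lists were deposited by the authors, 1 per library: pileup is a signal at the summit, fold enrichment a ratio of pileup to background, and -log10 q the peak caller's value, per the file headers. No source used here says whether a control library was used. Library background was worked out from the pileup and its fold enrichment; VDR pileups with vitamin D had been scaled (0.0955% whole numbers) and were not compared between libraries. Summits sharing start and end were merged to a region, and overlapping regions of the 4 libraries of a mark were joined. The log2 ratio of the highest summit was centred on the median of shared regions, with 1.5-fold as the limit; 1 library per condition allows no test.

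Python 3.11.15, pandas 2.3.3, numpy 2.4.6 and scipy 1.17.1 were used. A standard error was obtained for every gene as the deposited fold change over the z value of its p. Both agents against IL-13, and the difference of the IL-13 effects, were z tests on the deposited fold changes over 14734 genes with Benjamini-Hochberg adjustment at 0.05; the difference uses 2 tables that share no library, and 11 genes on which the tables disagree by over 0.5 were left out. On simulated data with 14745 genes, both agents against IL-13 found 81% of simulated log2 changes of size 0.5 and 100% at size 1, and the difference of the IL-13 effects 72% and 91%, with 6 and 14 false calls. The simulated errors were normal, with 1 variance per gene across the groups, and the simulated p-values used that variance. These figures hold for that setting only and do not test unequal variances or tables that disagree. Promoter windows came from RefSeq (9 of 10 genes matched). All 10 genes are named; pathway genes are named where a deposited change was called at 2-fold or more or a count was 5 or fewer, and the pathway genes given with levels beyond this, and MYD88, IL36A and IL36B, were chosen after their values were seen. The genes, lists and tests were chosen with earlier results of these data known. Alternatives covered the adjusted p limit, its recomputation, a 1 RPKM minimum, a 2-fold minimum, pseudocounts of 0.1 and 1, no floor on the derived variance, a 50 kb assignment, a -log10 q of 10, overlap by part of the shorter region, uncentred ratios and pileups.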

Additional observations from a re-analysis of the deposited data

Results flagged for a closer look

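The effect of IL-13 differed between cells without and with vitamin D for IL1B, by 0.35 on the log2 scale (z test derived from the authors' deposited tables, Benjamini-Hochberg adjusted p = 2.35e-07), and for IL1R1, by 0.47 (adjusted p = 0.0133). Both were tested as the difference itself, on 2 deposited tables that share no library. Each gene was lower with IL-13 in both settings, by the smaller amount with vitamin D present.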

How the results depend on the processing

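No called RNA change of the 10 genes changed direction under the alternatives run. Against a limit scaled from the derived SE, 6 of 60 log2 values moved with 0.1 added to each RPKM, and 11 of 40 with 1 added. With 0.1 added, the vitamin D values fell from 0.35 to 0.30 for IL1A and from 0.98 to 0.93 for IL1B. They fell from 0.52 to 0.46 for IL1RN and from 0.27 to 0.18 for IL1RAP. The rest that moved with 0.1 added were IL1RL1 values with both agents. IL1R2 with IL-13, which was not called, went from -0.02 to 0.02 with 0.1 added to each RPKM and to 0.01 with 1 added. Asking for a change of 2-fold or more left 0 of 8 called genes under IL-13, 1 of 7 under vitamin D, 1 of 7 under both agents and 0 of 5 for both against vitamin D, IL1RL1 being the gene that stayed; an adjusted p of 0.01 left 7 of 8 with IL-13, without IL1A. Adding 1 to each RPKM moved the IL1RL1 vitamin D value from 4.36 to 2.45. Regions assigned to the genes numbered 330 for H3K27ac, 197 for H3K9ac, 50 for H3K4me3, 12 for VDR and 1 for STAT6, summed over libraries. A -log10 q of at least 10 left 79, 8, 27, 6 and 0, and removed both untreated VDR regions at IL1RL1, leaving 0. Taking every region with a summit within 50 kb of a gene gave 522 for H3K27ac, 359 for H3K9ac and 4 for STAT6. These counts were summed over genes, so a region near more than 1 of the genes was counted for each of them. Without centring, H3K27ac regions past 1.5-fold went from 8 to 21 under IL-13, from 6 to 12 under vitamin D and from 11 to 17 under both, and H3K4me3 from 0 to 1 with vitamin D. The median log2 ratio of shared regions changed sign without centring for H3K27ac under both agents, from 0.06 to -0.39, and for H3K4me3 under vitamin D, from -0.08 to 0.09. At 2-fold, H3K27ac kept 1 under IL-13, 0 under vitamin D and 1 under both, and H3K9ac 0 in each of the 3 treatments. With pileup in place of fold enrichment, H3K9ac went from 2 to 4 with IL-13 and from 2 to 6 with vitamin D. Of the IL1RL1 H3K27ac region at the downstream start, the vitamin D ratio of 1.67 was 1.73 by pileup and 1.91 by pileup over library background, the last chosen after seeing the data. The cause of these shifts was not tested. No paired analysis was possible because the RNA columns hold 1 value per group and carry no replicate number, and no sample could be left out. The H3K9ac regions at IL1RL1 rest on 4 to 6 fragments, and the part of depth in them was not tested.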
